A study of Mus musculus with 16 samples.

Results

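The genes described are 10 genes of the mouse major histocompatibility complex (MHC) pathway, found by their gene symbol in a table of 17003 genes measured by RNA sequencing of the liver. All 10 were in the table and all 10 passed the filter on low values, which kept 12770 genes. They are the class I heavy chain genes *H2-K1*, *H2-D1* and *H2-T23*, the class I light chain gene *B2m*, the class II chain genes *H2-Aa*, *H2-Ab1* and *H2-Eb1*, the class II chaperone genes *Cd74* and *H2-DMa*, and *Ciita*, which encodes the class II transactivator. Livers came from 8 *Fgl1* LKO mice, in which floxed *Fgl1* alleles are deleted by a CRE recombinase under the albumin promoter, and from 8 *Fgl1* LWT littermates, which carry the same floxed alleles without CRE. All 16 mice were fed males aged 8 weeks on normal chow, and each gave 1 library. The albumin promoter directs CRE to hepatocytes, whereas the RNA came from whole liver with all its cell types.

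MHC class I molecules are made by nearly all nucleated cells. A heavy chain pairs with beta-2 microglobulin, the product of *B2m*, and presents peptides from inside the cell to CD8 T cells. MHC class II molecules are made mainly by dendritic cells, B cells and macrophages, and present peptides from engulfed material to CD4 T cells. The invariant chain encoded by *Cd74* holds the peptide groove of new class II molecules, and the H2-DM heterodimer, of which *H2-DMa* encodes one chain, later loads the peptide. Interferon gamma raises both classes, and CIITA is the master activator of class II transcription. FGL1, the hepatocyte protein whose gene was deleted here, has been described as a ligand of LAG3. LAG3 is a surface protein of activated T cells that also binds MHC class II. The study states that a role of FGL1 in immune evasion through LAG3 has been questioned.

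On the GRCm39 assembly with the GENCODE annotation, 7 of the 10 genes lie on chromosome 17 within 2.13 megabases, from 34214987 to 36345571. *H2-K1* occupies chr17:34214987-34219321 on the minus strand, and *H2-D1* chr17:35481691-35486475 on the plus strand. *H2-Ab1* (chr17:34476663-34488393, plus strand), *H2-Aa* (chr17:34493404-34506798, minus strand) and *H2-Eb1* (chr17:34504236-34535648, plus strand) stand side by side, and the annotated ends of *H2-Aa* and *H2-Eb1* overlap on opposite strands. *B2m*, *Ciita* and *Cd74* are on chromosomes 2, 16 and 18. RefSeq promoters, 250 bases before to 50 bases after the transcription start, were matched by symbol for 7 of the 10 genes, with 9 start sites in all. They are credited to RefSeq, whose table uses GRCm38.p6. Each was found unchanged at a single place in GRCm39, which gives the coordinates used here.

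The stretches below are given as a description. Whether they bear on how closely RNA levels of the genes followed each other across mice was not tested. No promoter was matched for *H2-Ab1*, *Cd74* and *Ciita*. Capitals mark matches, on either strand, to CCAAT (the NF-Y box), TGACGTCA (the cyclic AMP response element), GGGGATTCC (a NF-kappa B site) and GAAANNGAA or GAANNGAAA (parts of the interferon-stimulated response element). The last of these was added after the data were seen. TGACGTCA reads the same on both strands, and the 2 interferon motifs can overlap. Positions count back from the start site. The first 3 stretches end before any annotated untranslated region of their gene, on chr17:34219322-34219471 (minus strand), chr17:34506799-34506947 (minus strand) and chr17:34524691-34524812 (plus strand).
H2-K1: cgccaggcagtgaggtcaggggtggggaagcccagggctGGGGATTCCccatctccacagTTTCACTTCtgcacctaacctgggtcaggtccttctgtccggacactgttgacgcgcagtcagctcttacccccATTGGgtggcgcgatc
H2-Aa: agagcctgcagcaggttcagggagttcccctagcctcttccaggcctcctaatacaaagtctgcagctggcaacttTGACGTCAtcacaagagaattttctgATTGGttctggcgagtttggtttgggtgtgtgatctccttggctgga
H2-Eb1: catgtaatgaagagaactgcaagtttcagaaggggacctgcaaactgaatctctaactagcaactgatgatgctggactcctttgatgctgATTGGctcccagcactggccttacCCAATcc

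The corresponding upstream sequence of *H2-D1*, *B2m* and *H2-T23* lies in a 5′ untranslated region of other annotated transcripts, so only the 30 bases around the interferon motif are given, on chr17:35481899-35481928 (plus strand), chr2:121978019-121978048 (plus strand) and chr17:36343697-36343726 (minus strand).
H2-D1: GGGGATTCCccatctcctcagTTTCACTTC
B2m: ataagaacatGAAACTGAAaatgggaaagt
H2-T23: tcctactgctTTCTCTTTCataaagacaca

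*H2-K1* and *H2-D1* shared 29 of 30 bases from the NF-kappa B site to the interferon motif, which lie between -111 and -82 in *H2-K1* and between -171 and -142 in *H2-D1*. GGGGATTCC was found in these 2 of the 7 matched genes and in 0.25% of all 32851 promoters of the table. GAANNGAAA was found in the same 2 genes and in 7.52% of all promoters, and GAAANNGAA in *B2m* and *H2-T23* and in 8.56%. TGACGTCA was found only in *H2-Aa* of the 7, between -74 and -67, and in 1.79% of all promoters. CCAAT was found in all 7 and in 37.4% of all promoters. These matches describe letters in a window and do not show that a factor binds there. The canonical transcripts of *H2-K1* and *H2-D1* were identical at 90.7% of 1581 aligned bases. None of the 150-base stretches of the *H2-K1* transcript, and 1.8% of those of *H2-D1* (shared with *H2-Q1*) and 0.8% of those of *H2-T23* (shared with *H2-T9*), occurred unchanged in a transcript of another gene. None were shared for the other 7 genes.

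Expression was deposited as FPKM, fragments scaled to transcript length and to library size. The sum of FPKM ranged from 673153 to 786188 among mice, and 14116 to 14407 genes were above 0. How many reads a library holds is unknown, and the relative depth estimated from low values lay between 0.98 and 1.02. *Fgl1* itself was lower in every *Fgl1* LKO mouse (13.2 to 90.0 FPKM) than in any *Fgl1* LWT mouse (157.8 to 1331 FPKM), with an exact permutation p = 0.000155, the smallest that 8 mice against 8 allow (two-sided). In limma its log2 fold change was -3.11, with an adjusted p = 0.0725. The mouse numbers in the labels fall into 4 runs, of which the first holds 3 *Fgl1* LWT mice only, so that for those mice run and genotype cannot be told apart. The labels do not say what a run stands for.

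The class I genes were abundant. *B2m* was the highest of the 10 genes, with a lowest, median and highest value of 1286, 1487 and 1916 FPKM in *Fgl1* LWT mice and of 1370, 1515 and 1751 FPKM in *Fgl1* LKO mice. *H2-K1*, a classical heavy chain, ranged from 749.8 to 912.8 FPKM (median 841.8) in the *Fgl1* LWT group, and from 788.4 to 984.3 FPKM (median 864.1) in the *Fgl1* LKO group. For both genes the ranges of the genotypes overlapped. *H2-D1*, the other classical heavy chain, ranged from 287.2 to 473.2 FPKM (median 328.4) and from 316.0 to 415.1 FPKM (median 367.9). *H2-T23*, which encodes the nonclassical molecule Qa-1 recognized by NK cell receptors, ranged from 162.8 to 207.2 FPKM (median 181.6) and from 143.5 to 207.8 FPKM (median 189.4). The 2 highest *H2-D1* values were those of *Fgl1* LWT replicates 7 and 5, at 473.2 and 427.9 FPKM, and the lowest was that of *Fgl1* LWT replicate 2.

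The class II genes were measured at far lower levels. *Cd74* had a lowest, median and highest value of 19.2, 35.7 and 47.2 FPKM in *Fgl1* LWT mice and of 29.0, 42.2 and 61.6 FPKM in *Fgl1* LKO mice. *H2-Aa*, the alpha chain of I-A, had values of 8.01, 17.1 and 20.5 FPKM, and of 13.4, 18.5 and 26.4 FPKM. *H2-Ab1*, its beta chain, had values of 6.57, 14.9 and 19.7 FPKM, and of 10.1, 16.6 and 24.4 FPKM. For these genes the highest mouse was *Fgl1* LKO replicate 1 and the lowest *Fgl1* LWT replicate 8, and the genotypes overlapped. *H2-Eb1*, the beta chain of I-E, ranged from 2.59 to 8.01 FPKM (median 6.35) and from 5.30 to 10.8 FPKM (median 6.81), with the same mice at the ends. *H2-Ea*, which encodes the partner of the *H2-Eb1* product, is not listed in the table. *H2-DMa* ranged from 1.03 to 2.34 FPKM (median 1.57) and from 1.25 to 3.33 FPKM (median 2.04), with *Fgl1* LWT replicate 3 lowest and *Fgl1* LKO replicate 8 highest. In bulk liver, fewer cells of a type and less RNA per cell cannot be told apart.

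*Ciita* was near the floor of the table, which gives 2 decimals. Its values ran from 0.07 to 0.23 FPKM (median 0.185) in the *Fgl1* LWT group, and from 0.10 to 0.29 FPKM (median 0.20) in *Fgl1* LKO mice. No mouse was at 0. The number of reads behind these values is unknown. A difference on the log2(FPKM + 1) scale understates the relative one.

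**Figure D1:**
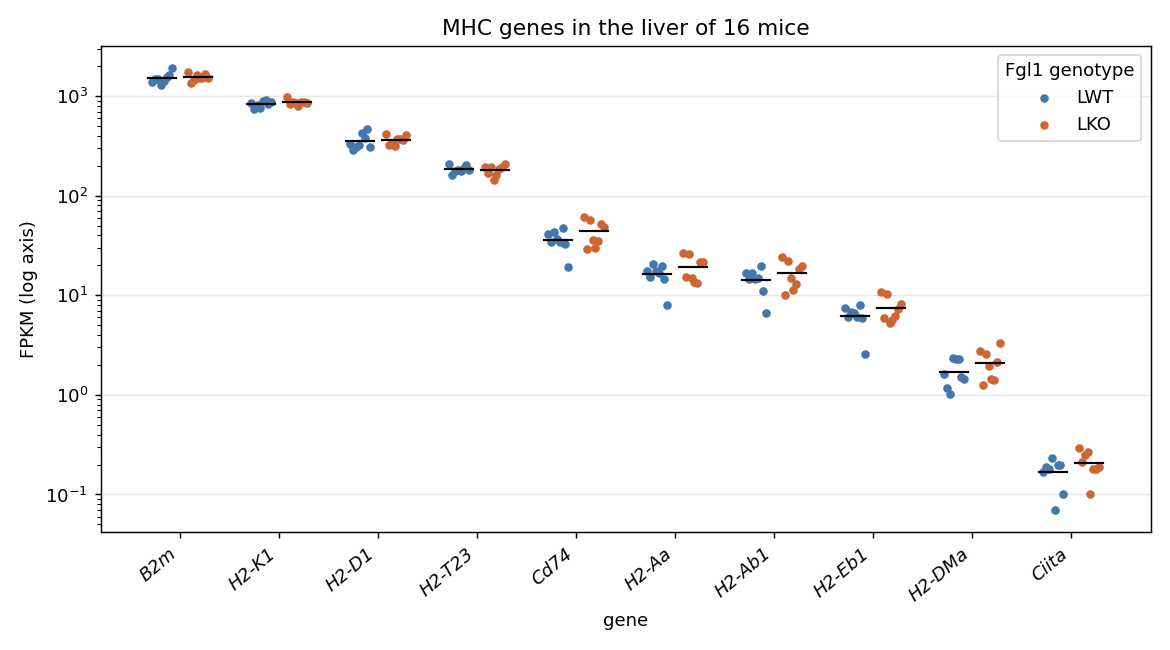
FPKM (log axis) of the 10 genes in each of 8 *Fgl1* LWT and 8 *Fgl1* LKO mice, ordered by mean level; points are mice and black lines group means. Levels run from 1535 FPKM for *B2m* to 0.188 FPKM for *Ciita*, and the genotypes overlap for every gene.

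Since FPKM are scaled to length, levels can be set beside each other within a mouse. The order *B2m*, *H2-K1*, *H2-D1*, *H2-T23*, *Cd74*, *H2-Aa*, *H2-Ab1*, *H2-Eb1*, *H2-DMa*, *Ciita* was the same in all 16 mice except that *H2-Aa* and *H2-Ab1* changed places in 1 mouse. The ratio of the I-A chains, *H2-Aa* to *H2-Ab1*, had a median of 1.14 (0.988 to 1.51). The *Cd74* level was 2.56 times that of *H2-Ab1* at the median, within 2.26 to 2.99. *H2-K1* stood 39.1 to 131 times above *H2-Ab1*, and 1.75 to 2.80 times above *H2-D1*. *B2m* was about as abundant as the 3 heavy chain members together (median ratio 1.06, 0.947 to 1.41). With *H2-Q10*, which encodes a heavy chain secreted by the liver, added to the heavy chains, the ratio was 0.535 (0.474 to 0.704). *H2-Eb1* stood at 0.43 times *H2-Ab1* (0.353 to 0.588). No difference in these 7 ratios between genotypes was detected by an exact permutation test over the mice (two-sided p from 0.49 to 0.95, unadjusted).

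No difference between genotypes was detected for any of the 10 genes. In limma with Benjamini-Hochberg adjustment, 0 of 12770 genes (0.0%) had an adjusted p under 0.05, and 0 of the 10. The deleted gene *Fgl1* did not pass this threshold either (adjusted p = 0.0725 from limma). The absence of calls therefore does not show that the 10 genes were unchanged. An unadjusted p under 0.05 was found for 895 genes (7.01%) and for 0 of the 10. Groups without overlap were found for 2 genes (0.0157%), and for 0 of the 10. The mean was higher in *Fgl1* LKO mice for 9 of the 10, against 7126 genes (55.8%) of all tested. The median log2 fold change was 0.04 for the 4 class I genes and 0.22 for the 5 class II genes, against 0.01 for all genes tested. This description is no test of the list, and the class II genes are not independent of each other.

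The class I means were close, with narrow intervals. The mean of *H2-K1* was 835.0 ± 56.7 FPKM without CRE and 866.8 ± 54.8 FPKM with it (SD, n = 8 each). Its log2 fold change was 0.05 (95% confidence interval -0.08 to 0.19, adjusted p = 0.838 from limma). *B2m* had 1520 ± 189.5 and 1551 ± 124.0 FPKM, with a log2 fold change of 0.03 (interval -0.14 to 0.21). *H2-D1* had 355.5 ± 66.1 and 363.3 ± 36.3 FPKM, with a log2 fold change of 0.05 (interval -0.17 to 0.26). *H2-T23*, the only one of the 10 with the lower mean in *Fgl1* LKO mice, had 185.4 ± 15.2 and 181.6 ± 21.4 FPKM, with a log2 fold change of -0.03 (interval -0.20 to 0.13). Adjusted p-values of the last 3 were 0.936, 0.928 and 0.929. The sign for *H2-D1* turned without the first run of mouse numbers (-0.07) and with the run as a term (-0.05), and that for *H2-T23* without *Fgl1* LKO replicate 4 (0.01).

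The class II means were higher in *Fgl1* LKO mice (ratio of means 1.17 to 1.23), with wider intervals that include 0. *Cd74* had 36.2 ± 8.57 FPKM in *Fgl1* LWT mice and 43.8 ± 12.8 FPKM in *Fgl1* LKO mice (SD, n = 8 each). Its log2 fold change was 0.25 (interval -0.13 to 0.64, adjusted p = 0.765 from limma). *H2-Eb1* had 6.18 ± 1.63 and 7.47 ± 2.11 FPKM, with a log2 fold change of 0.25 (interval -0.12 to 0.61). *H2-Aa* had 16.3 ± 3.87 and 19.2 ± 5.49 FPKM, with a log2 fold change of 0.22 (interval -0.16 to 0.59). *H2-Ab1* had 14.4 ± 4.01 and 16.8 ± 5.19 FPKM, with a log2 fold change of 0.21 (interval -0.21 to 0.63). Adjusted p-values of these 3 lay between 0.759 and 0.810. *H2-DMa* had 1.72 ± 0.53 and 2.11 ± 0.74 FPKM, with a log2 fold change of 0.18 (interval -0.12 to 0.49), and *Ciita* 0.168 ± 0.054 and 0.209 ± 0.061 FPKM, with one of 0.05 (interval -0.04 to 0.14). The difference for *H2-DMa* was 0.03 when the model held the runs and 0.04 without run 1. With a pseudocount of 0.1 in place of 1, the difference was 0.27 for *H2-DMa* and 0.21 for *Ciita*. Without *Fgl1* LWT replicate 8, the log2 fold change of *H2-Ab1* was 0.07 and that of *H2-Aa* 0.09. Exact permutation tests over the 16 mice gave two-sided p-values from 0.182 (*Ciita*) to 0.666 (*H2-D1*) for the 10 genes.

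**Figure D2:**
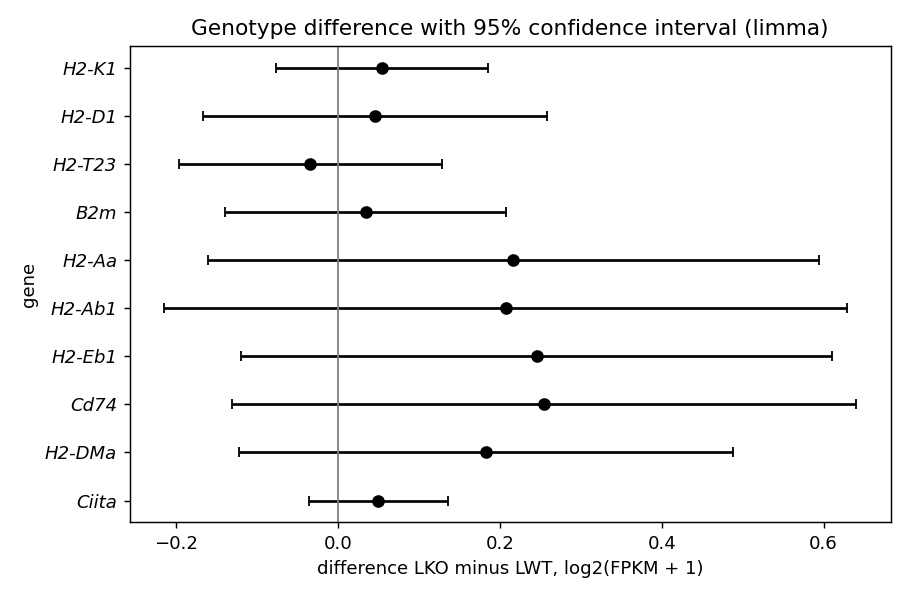
Difference between *Fgl1* LKO and *Fgl1* LWT means on the log2(FPKM + 1) scale for each of the 10 genes; points are limma estimates from 8 mice a group and bars 95% confidence intervals. All 10 intervals include 0, and those of the class II chain genes are wider than those of the class I genes.

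Within the runs of mouse numbers that hold both genotypes, the direction was not stable. The mean was higher in *Fgl1* LKO mice for 9 of 10 genes in run 2 (1 *Fgl1* LWT mouse against 3), for 2 of 10 in run 3 (2 against 3) and for 9 of 10 in run 4 (2 against 2). *H2-Ab1* differed by 0.25, -0.37 and 1.07 on the log2(FPKM + 1) scale in the 3 runs, and *Cd74* by 0.34, -0.25 and 0.98. *H2-K1* differed by 0.23, -0.10 and 0.03. Run 4 holds *Fgl1* LWT replicate 8, the mouse lowest in the class II chains. These groups are too small for a test of their own.

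The 2 classes differed in how far mice of the same genotype spread. The SD within genotype on the log2(FPKM + 1) scale was 0.09 for *H2-K1*, 0.15 for *B2m* and for *H2-T23*, and 0.21 for *H2-D1*. It was 0.39 for *H2-Aa*, 0.44 for *H2-Ab1*, 0.38 for *H2-Eb1*, 0.40 for *Cd74* and 0.31 for *H2-DMa*. The median of all genes tested was 0.17. *H2-K1* stood at percentile 6.7 of all genes tested and *H2-Ab1* at percentile 95.3. The 4 class I genes spanned percentiles 6.7 to 66.6, and *H2-Aa*, *H2-Ab1*, *H2-Eb1* and *Cd74* 92.8 to 95.3. These percentiles are over genes of all levels, and the part of the level in this contrast was not tested. *Fgl1* LWT replicate 8 was the lowest mouse in each of the last 4 genes, and the SD without it was not computed. Over all 16 mice the highest value was 1.31 times the lowest for *H2-K1* and 3.71 times for *H2-Ab1*. *Ciita*, at percentile 1.9, cannot be set beside the others, because adding 1 compresses so low a gene: its highest value was 4.14 times its lowest. *H2-DMa*, with a mean of 1.91 FPKM, is compressed too, though less. Its highest value was 3.23 times its lowest, against 3.22 times for *Cd74*.

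*H2-Aa*, *H2-Ab1*, *H2-Eb1* and *Cd74* rose and fell together from mouse to mouse. Of 45 pairs among the 10 genes, 7 had an adjusted p under 0.05 (Pearson's r, 100000 permutations, Benjamini-Hochberg over 45 pairs), and 6 of these were the 6 pairs of those 4 genes. Their r lay between 0.92 and 0.97 over 16 mice, each with an adjusted p = 7.5e-05, and Spearman's rho between 0.89 and 0.95 with adjusted p-values of at most 0.000225. The highest was *H2-Ab1* with *Cd74* (r = 0.97, rho = 0.95). Without the 2 mice farthest from the median of the first gene, r was 0.83 to 0.94. With each mouse left out in turn the lowest r of the 6 was 0.87, without *Fgl1* LWT replicate 8. Runs of mouse numbers hold fewer than 6 mice, which is too few for a correlation within each, so deviations from the run means were used instead. They gave r of 0.93 to 0.98 for the 6 pairs. *H2-Aa* and *H2-Eb1* overlap on opposite strands in the annotation, the library kit keeps the strand, and whether counting used it is not given in the sources used here.

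**Figure D3:**
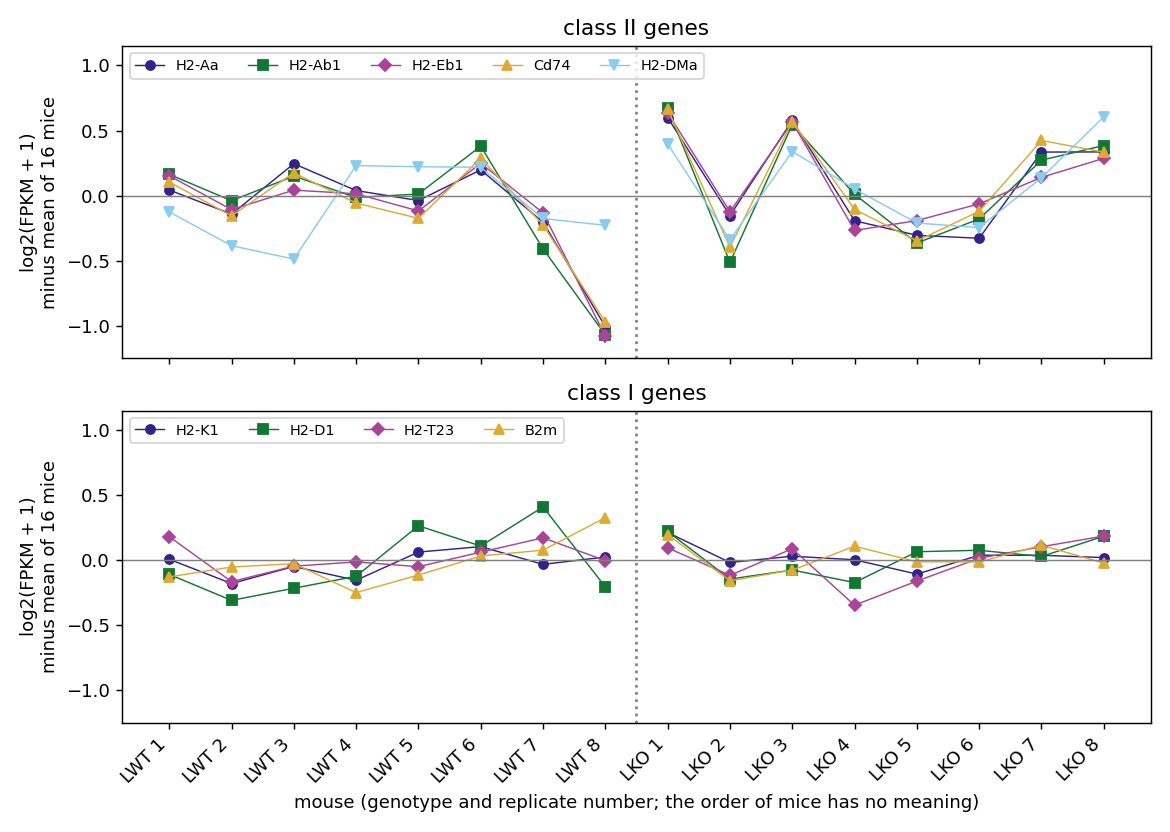
Level of each gene in each mouse on the log2(FPKM + 1) scale, minus the gene's mean over 16 mice, for class II genes (upper panel) and class I genes (lower panel) on the same axis; markers are genes, and the dotted line parts *Fgl1* LWT from *Fgl1* LKO mice. *H2-Aa*, *H2-Ab1*, *H2-Eb1* and *Cd74* lie together in each mouse, lowest in *Fgl1* LWT replicate 8 and highest in *Fgl1* LKO replicate 1, while the class I genes span a narrower range.

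*H2-DMa* followed the class II chains less closely. Its r was 0.64 with *H2-Ab1* (rho = 0.70, adjusted p = 0.0465 and 0.0224), the seventh pair past the threshold, and 0.55 to 0.60 with *H2-Aa*, *H2-Eb1* and *Cd74* (adjusted p from 0.0696 to 0.0781). The pair of *H2-Ab1* and *H2-DMa* passed in 7 of the 16 sets that leave out 1 mouse, with r from 0.58 without *Fgl1* LKO replicate 1 to 0.74 without *Fgl1* LWT replicate 3. It did not pass with median-ratio scaling (r = 0.61), a pseudocount of 0.1, deviations from the genotype means or without the 2 farthest mice. As deviations from the run means *H2-DMa* passed with all 4 (r from 0.70 to 0.84). *Ciita* had r of 0.30 to 0.58 with the 5 class II genes, and none of these pairs passed over all 16 mice (adjusted p from 0.0781 to 0.363). Without the 2 farthest mice these r were 0.23 to 0.36. Without *Fgl1* LWT replicate 5, *Ciita* passed with *H2-Aa*, *H2-Ab1*, *H2-Eb1* and *Cd74* (r from 0.63 to 0.64, adjusted p = 0.0484 for each). Without *Fgl1* LKO replicate 4, it passed with *H2-Aa*, *H2-Eb1* and *Cd74* (r from 0.65 to 0.70, adjusted p from 0.0231 to 0.0436). It passed in no other set that leaves out 1 mouse.

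Among the class I genes the correlations were weaker, and their calls depended on the scaling. Their 6 pairs had r from 0.04 (*H2-T23* with *B2m*) to 0.51 (*H2-D1* with *H2-T23*), and none passed on the values as deposited (adjusted p from 0.127 to 0.944). With median-ratio scaling 3 of these pairs passed: *H2-K1* with *B2m* (r = 0.69, adjusted p = 0.0243), *H2-K1* with *H2-D1* (r = 0.65, adjusted p = 0.0341) and *H2-D1* with *H2-T23* (r = 0.63, adjusted p = 0.0421). As deviations from the run means, *H2-D1* with *H2-T23* passed (r = 0.69, adjusted p = 0.012). *H2-K1* and *H2-D1*, whose promoters share the stretch shown above, had r = 0.49 (rho = 0.55, adjusted p = 0.14 and 0.10), and r = 0.24 without the 2 farthest mice. The 20 pairs of a class I with a class II gene had r from -0.33 (*B2m* with *H2-Eb1*) to 0.49 (*H2-K1* with *H2-DMa*), and none passed on the values as deposited. As deviations from the run means, *H2-Eb1* passed with *H2-D1* and with *H2-T23* (r = 0.63 and 0.64). *Fgl1* LWT replicate 8 was the lowest mouse in the class II chains and the highest in *B2m* (1916 FPKM). It also had the highest sum of FPKM and the lowest median-ratio size factor (0.91), and the part of that scaling in its values was not tested.

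**Figure D4:**
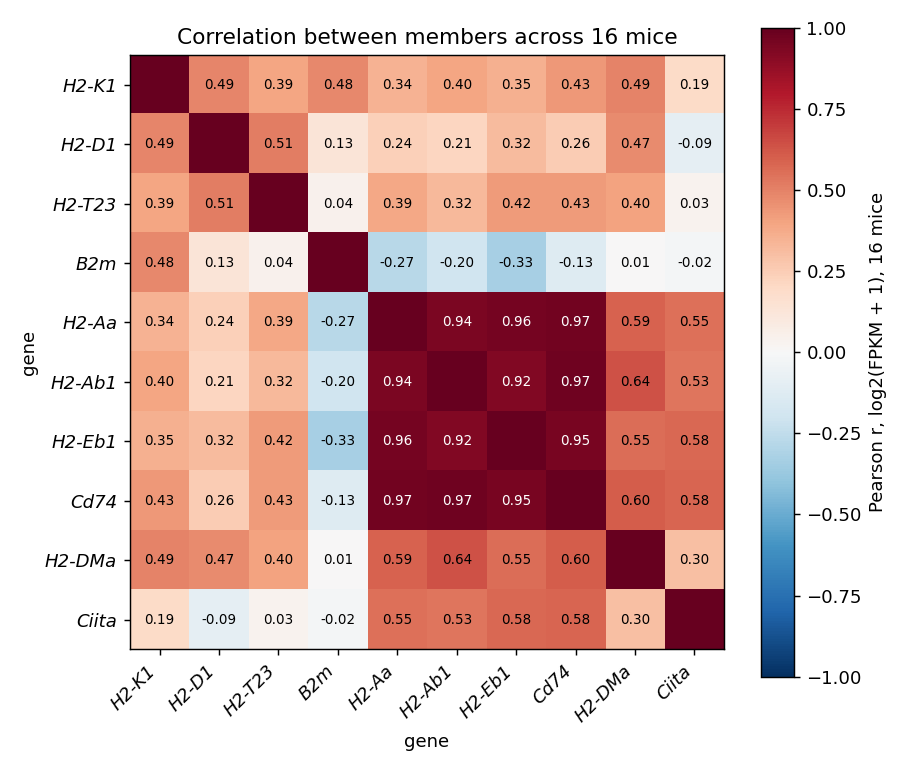
Pearson's r of log2(FPKM + 1) across 16 mice for the 45 pairs of the 10 genes; color runs from -1 (blue) to 1 (red). The block of *H2-Aa*, *H2-Ab1*, *H2-Eb1* and *Cd74* stands at 0.92 to 0.97, against at most 0.51 among the class I genes in the values as deposited, and 0.69 with median-ratio scaling.

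Across all 12769 other genes tested, the 3 with the pattern most like *H2-Ab1* were *Cd74*, *H2-Aa* and *H2-Eb1*, in that order (r = 0.97, 0.94 and 0.92). The next 5 were *Plekho2* (r = 0.86), *Syt9* (0.83), *Fbxw8* (0.81), *Loxl1* (0.81) and *Zfp438* (0.81), and 4 of these 5 had a mean under 1 FPKM. The transactivator *Ciita* ranked 974 (r = 0.53) and *H2-DMa* ranked 292. *Cxcl9* (an interferon gamma-induced chemokine, rank 203, r = 0.66) and *Tap1* (rank 248, r = 0.65) were named after their values were seen. Each had the highest r of its list, interferon gamma signalling and class I peptide supply. In these lists r ran down to 0.05 (*Cxcl10*) and -0.29 (*Psme1*). For *H2-K1* the 5 most alike were *Coa4* (r = 0.87), *Tafa5* (0.84), *Map3k10* (0.78), *Atp2a3* (0.77) and *Atox1* (0.76). *Tap1*, the peptide transporter gene, ranked 32 (r = 0.63), *Psmb9*, an immunoproteasome subunit, 61 (r = 0.60), *H2-D1* 271 and *B2m* 308. *Tap1* and *Psmb9* were again named after their values were seen. They had the highest r of the genes for class I peptide supply and loading, among which r ran down to -0.63 (*Erap1*, rank 12705). These ranks are descriptions over 16 mice, and the highest of so many r values are large in part because they were picked.

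The other genes of the class I pathway gave the same picture of small differences. Of 17 other class I and class I-like genes, all were in the table, 15 were tested, 0 passed after adjustment, and 6 had the higher mean in *Fgl1* LKO mice (median log2 fold change -0.005). *H2-Q10* had 1390 ± 217 FPKM in *Fgl1* LWT mice and 1440 ± 131 FPKM in *Fgl1* LKO mice, a level near that of *B2m*. *Azgp1*, a secreted class I-like protein, had 1280 ± 83.7 and 1170 ± 95.9 FPKM (adjusted p = 0.707 from limma). *H2-T3* was listed at 0 in all 16 mice. Of 13 genes for peptide supply and loading (immunoproteasome, TAP transporter, tapasin and chaperones), 12 had the higher mean in *Fgl1* LKO mice and 0 passed (median 0.09). *Calr*, a chaperone of new heavy chains, had 539.0 ± 76.5 and 605.0 ± 101 FPKM, and *Pdia3*, its partner in the loading complex, 197.0 ± 15.4 and 212.0 ± 50.0 FPKM.

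Among 12 other class II genes and genes of class II peptide handling, 11 were in the table, 10 were tested, 8 had the higher mean in *Fgl1* LKO mice and 0 passed (median 0.10). *Ctsl*, a lysosomal protease, had means of 193.0 and 203.0 FPKM (log2 fold change 0.07, standard error 0.12), and *Lgmn*, another, 27.8 ± 4.51 and 31.3 ± 8.57 FPKM. *H2-DMb1*, which encodes the partner of the *H2-DMa* product and is named after its values were seen, had 2.23 ± 0.57 and 2.52 ± 0.68 FPKM, close to the level of *H2-DMa*. Of 12 regulators of MHC transcription, 9 had the higher mean in *Fgl1* LKO mice and 0 passed (median 0.07). *Irf2* had 17.2 ± 1.64 and 18.3 ± 2.24 FPKM, and *Irf1*, the interferon-induced factor, 13.8 ± 3.61 and 15.8 ± 3.43 FPKM. *Nlrc5*, the class I counterpart of *Ciita*, named after its values were seen, had 2.88 ± 0.29 and 3.13 ± 0.86 FPKM, a level far above that of *Ciita*.

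Of 12 interferon gamma signalling genes 11 were tested, 10 had the higher mean in *Fgl1* LKO mice, and the median log2 fold change was 0.21. None passed after adjustment, and 2 had an unadjusted p under 0.05, against 7.01% of all genes. *Irgm1*, an interferon-induced GTPase, had 29.8 ± 4.15 and 41.6 ± 15.8 FPKM (log2 fold change 0.40, unadjusted p = 0.0298, adjusted p = 0.696 from limma). *Jak1*, a kinase of the interferon receptor, had 21.0 ± 1.70 and 24.3 ± 3.83 FPKM (log2 fold change 0.20, unadjusted p = 0.0283, adjusted p = 0.696 from limma). *Ifng* itself was at 0 in 12 of the 16 mice and was not tested. Of the LAG3 list, *Lag3* had 0.412 ± 0.117 and 0.329 ± 0.17 FPKM, and *Clec4g*, a sinusoidal lectin known to bind LAG3, 30.3 ± 6.88 and 30.5 ± 9.54 FPKM, and neither passed (adjusted p = 0.779 and 0.976 from limma).

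Markers of the cells that express class II were measured beside these genes. All 7 Kupffer cell and macrophage markers had the higher mean in *Fgl1* LKO mice, against 55.8% of all genes tested. After adjustment 0 of these markers passed (median log2 fold change 0.25). Their summed level ran from 59.8 to 125 FPKM in *Fgl1* LWT mice and from 74.9 to 157 FPKM in *Fgl1* LKO mice, and none was at 0. *Vsig4* and *Adgre1*, both surface proteins of liver macrophages, had unadjusted p-values of 0.0309 and 0.0272 (adjusted p = 0.696 for both, limma). Over all genes tested, 7.01% had an unadjusted p under 0.05. The mean log2 level of these markers was 3.122, 2.694 and 2.953 in the 3 *Fgl1* LWT mice of run 1. It was 3.121 to 3.572 in the other *Fgl1* LWT mice and 3.026 to 3.875 in *Fgl1* LKO mice. For the mice of run 1, run and genotype cannot be told apart. All 5 dendritic cell markers tested, of 7, had the higher mean in *Fgl1* LKO mice, with sums of 1.77 to 2.48 and 2.10 to 3.27 FPKM. B cell and plasma cell markers summed to 0.73 to 2.02 and 0.43 to 2.48 FPKM, and *Ms4a1* was at 0 in 4 mice. *Cd79b*, a B cell receptor subunit, and *Itgax*, an integrin of dendritic cells, had unadjusted p-values of 0.0234 and 0.0407 (adjusted p = 0.696 for both, limma). Of the leukocyte, T and NK cell, neutrophil and monocyte, sinusoidal endothelium, and stellate cell and cholangiocyte lists, 4 of 4, 2 of 4, 4 of 4, 4 of 5 and 5 of 6 tested markers had the higher mean in *Fgl1* LKO mice, and none passed. Markers of hepatocytes, the main cells of the labelled tissue, summed to 49700 to 84200 and 45100 to 67400 FPKM. The part of these cell types in the class II values was not tested.

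Each of the 10 genes was also set against the mean log2 level of 4 marker lists across the 16 mice, and 2 of the 40 relations passed (Pearson's r, permutation, Benjamini-Hochberg over 40). *H2-DMa* followed the Kupffer cell and macrophage markers, with r = 0.80 and rho = 0.82 (adjusted p = 0.0104 and 0.0076), and r = 0.71 without the 2 farthest mice. This relation passed with each mouse left out in turn (r from 0.74 to 0.85), and r was 0.84 for deviations from the run means. For *H2-Aa*, *H2-Ab1*, *H2-Eb1* and *Cd74* the r with the same markers was 0.35 to 0.46, and none passed (adjusted p from 0.217 to 0.305). As deviations from the run means, these 4 had r of 0.70 to 0.78, and 5 of the 40 relations passed in that setting. With dendritic cell markers, the same 4 genes had r of 0.49 to 0.62 (adjusted p from 0.126 to 0.217), and 0.72 to 0.78 without the 2 farthest mice. In that last setting 6 of the 40 relations passed. Differences between these r values were not tested.

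The other relation past the threshold was that of *H2-D1* with the acute-phase genes *Saa1*, *Saa2*, *Orm2* and *Lcn2*, which hepatocytes raise in inflammation. Its r was 0.74 (adjusted p = 0.0294) and its rho 0.62 (adjusted p = 0.157). The acute-phase level was highest in *Fgl1* LWT replicates 7 and 5, the same mice with the highest *H2-D1*, at mean log2 values of 12.1 and 11.5, and between 4.03 and 10.6 in the others. Without these 2 mice, the farthest from the median, r was 0.54, so that much of the relation rests on them. Leaving out 1 mouse at a time, it passed in 11 of 16 sets, and the lowest r was 0.65, without *Fgl1* LWT replicate 7 (adjusted p = 0.149). As deviations from the run means r was 0.60. *H2-K1* had r = 0.19 with the same genes, *H2-T23* 0.06 and *B2m* 0.16. With median-ratio scaling r was 0.83 for *H2-D1*, 0.49 for *H2-K1*, 0.31 for *H2-T23* and 0.37 for *B2m*.

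**Figure D5:**
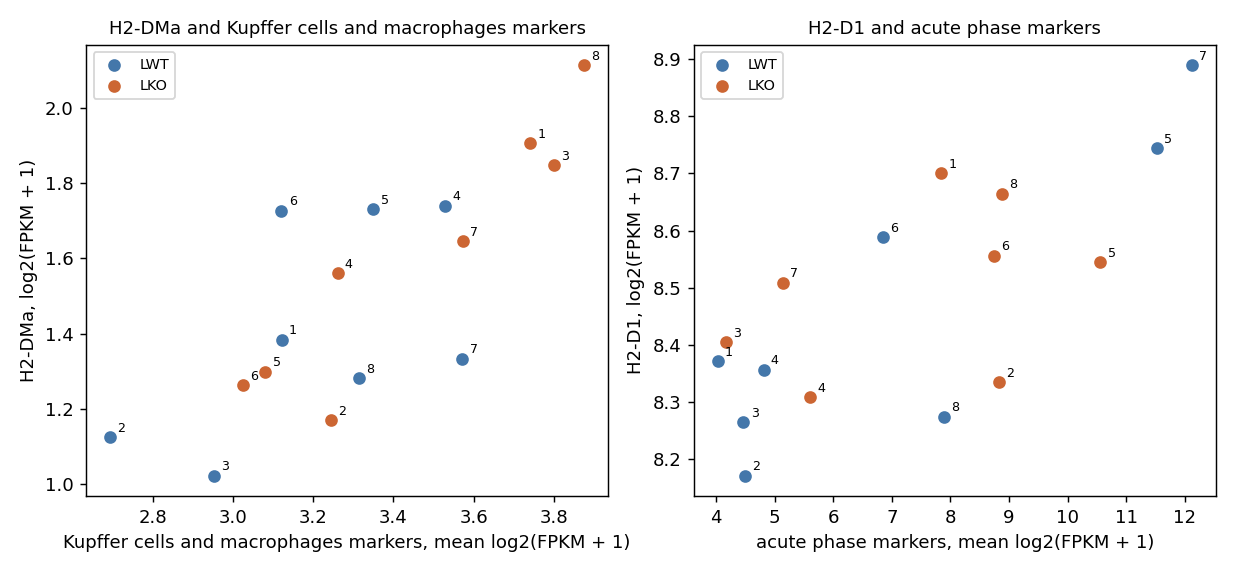
Left, *H2-DMa* against the mean of 7 Kupffer cell and macrophage markers; right, *H2-D1* against the mean of 4 acute-phase genes, all on the log2(FPKM + 1) scale, with 1 point per mouse numbered by replicate. *H2-DMa* rises with the macrophage markers over both genotypes (r = 0.80), and *H2-D1* is highest in *Fgl1* LWT replicates 7 and 5, which have the highest acute-phase level (r = 0.74).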

How the data were processed

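RNA from the liver of 8 *Fgl1* LWT and 8 *Fgl1* LKO mice was sequenced as paired 150-base reads on DNBSEQ (polyA, strand-specific kit). Per the methods and the processing notes, the authors aligned reads with HISAT to mm39 and with Bowtie2 to reference genes. The authors deposited 1 table of FPKM values with decimal commas, rounded to 2 decimals, which the files do not pair with read counts. Versions, annotation and counting are not given in the sources used here. The study's methods give fewer mice per genotype than the table holds, while the legend of its heatmap gives 8 per genotype. All 16 were used. The values hold the authors' scaling to length and library size, so depth per library is unknown and only relative depth could be estimated.

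From these values, log2(FPKM + 1) was computed. The 12770 genes averaging 0.1 FPKM or more were kept, and genotypes were compared with limma 3.58.1 in R 4.3.3 (two-sided, trend, Benjamini-Hochberg, threshold 0.05) over the whole table. Exact permutation tests ran over 12870 splits of the mice. Correlations used 100000 permutations. Python 3.11.15, numpy 2.4.6, scipy 1.17.1 and pandas 2.3.3 were used. The limma and correlation steps were tested on simulated data. Groups come from the labels, and samples were mice, so p-values measure the spread between mice. Same-numbered mice of the genotypes deviated together (correlation above 0.1) in 3 of 8 pairs, short of every pair, so numbers were not used as pairs. The members, lists and tests were chosen with earlier results of these data known. Genes named are the 10 members, *Fgl1*, the genes of each list with an unadjusted p under 0.05 or among its 2 highest means, the 5 genes most like *H2-Ab1* and *H2-K1*, and others where stated. Alternatives were other pseudocounts, filters, scalings and weights, a run term, a replicate block and leaving out mice. Protein sequences were not used here.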

Additional observations from a re-analysis of the deposited data

Results flagged for a closer look

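Among 20 groups of 8 mice (10 genes in 2 genotypes), 4 values stood apart from their group, where chance flags about 1. By a wide gap, the lowest *Fgl1* LWT value was that of replicate 8 in *H2-Aa* (8.01 FPKM, next 14.7), in *H2-Eb1* (2.59 FPKM, next 5.92) and in *Cd74* (19.2 FPKM, next 32.8). The gap took 0.641, 0.713 and 0.593 of the group's range on the log2(FPKM + 1) scale. These genes moved together across mice, so the 3 values are not independent. *Fgl1* LKO replicate 1 was the highest of its group in *H2-K1* (984.3 FPKM, next 871.8), where the gap took 0.547 of the range.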

How the results depend on the processing

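No member passed the threshold of 0.05 under any alternative run: over 269 alternative values of the 10 genes the smallest adjusted p from limma was 0.617. With the run in the fit and without the first run, *H2-DMa* was 0.025 and 0.039. With a pseudocount of 0.1, *H2-DMa* was 0.266 and *Ciita* 0.211. *Ciita* could not be tested with a filter of at least 1 FPKM. The sign of the log2 fold change turned for *H2-D1* when the run entered the fit (-0.047) or the first run was left out (-0.068), and for *H2-T23* without *Fgl1* LKO replicate 4 (0.013). 1 gene of the table, *Fgl1*, passed after rescaling mice to equal sums (-3.097 on the log2 scale), with the replicate block (-3.105), the run term (-3.532) and without the first run (-3.713), with adjusted p = 0.0372, 0.0197, 0.025 and 0.0453, and the cause was not tested. Same-numbered mice correlated above 0.1 in 3 of 8 pairs (-0.161 to 0.446), and the block changed no call of a member. Leaving out each mouse in turn, *Fgl1* ranged from -3.284 to -2.845, *H2-K1* from 0.028 to 0.073, *H2-D1* from 0.004 to 0.107, *H2-T23* from -0.063 to 0.013, *B2m* from 0.001 to 0.083, *H2-Aa* from 0.088 to 0.279, *H2-Ab1* from 0.069 to 0.295, *H2-Eb1* from 0.109 to 0.301, *Cd74* from 0.134 to 0.329, *H2-DMa* from 0.11 to 0.245 and *Ciita* from 0.032 to 0.069.

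The number of member pairs past the threshold was 7, and 9 with median-ratio scaling (3 class I pairs gained, *H2-Ab1* with *H2-DMa* lost), 6 with a pseudocount of 0.1, for deviations from the genotype means and without the 2 farthest mice, 13 for deviations from the run means, and 6 to 12 with each mouse left out (12 without *Fgl1* LWT replicate 5, 11 without *Fgl1* LWT replicate 8). The number of marker relations past it was 2, and 6 without the 2 farthest mice, 5 for deviations from the run means and 1 to 6 with each mouse left out. Deviations from run means, marker relations without each mouse and the GAANNGAAA motif were chosen after seeing the data. The read depth behind a value is unknown, so counting error could not be given.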
